A study of Mus musculus with 8 samples.

Results

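The genes described here are the 8 that encode the chains of the mouse receptors for M-CSF, G-CSF, GM-CSF, IL-3 and IL-6, namely Csf1r, Csf3r, Csf2ra, Il3ra, Csf2rb, Csf2rb2, Il6ra and Il6st. They were chosen by gene symbol, with no measured value in the rule, and all 8 were found among the 29955 genes listed for each library. Gene expression was measured by RNA-seq in LSK cells, which lack lineage markers and carry Sca1 and Kit, and in LK cells, which lack lineage markers and carry Kit. Both were sorted from the bone marrow of WT mice and of mice that lack Ripk3, a kinase that triggers necroptosis. There were 4 groups of 2 libraries each, named WT-LSK, Ripk3-KO-LSK, WT-LK and Ripk3-KO-LK, on a background that the labels spell CD57BL6/J and the study C57BL/6J. The labels record untreated mice, whereas the study describes this RNA-seq as made from WT and Ripk3-KO mice alike after repeated weekly low-dose X-rays, about a month after the last one, and an unirradiated group is not analysed here. The LK label names no Sca1 gate, and the study defines LK cells as lacking Sca1. The labels do not say whether the 2 libraries of a group came from separate animals or pools of animals, so the p-values measure only the spread between these libraries, which may be technical.

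These receptors carry the signals that direct progenitors toward granulocytes, monocytes and macrophages. Csf1r is a receptor tyrosine kinase, whereas the others belong to the cytokine receptor family, have no kinase of their own and signal through JAK kinases and STAT factors. Csf3r works as a homodimer. Csf2ra and Il3ra are alpha chains, which bind GM-CSF and IL-3 with low affinity and can signal with the shared beta chain Csf2rb. Mice have a further beta chain, Csf2rb2, which serves IL-3 alone. Il6ra binds IL-6, and Il6st encodes gp130, the signal chain that IL-6 shares with LIF, oncostatin M, IL-11 and others. Stem cells and early progenitors are known to carry little Csf1r, and the granulocyte and monocyte progenitors among LK cells are known for high levels of Csf1r, Csf3r and the GM-CSF receptor.

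The beta chains are near copies of each other, and this limits what reads can say about either. In GENCODE M21 on GRCm38, Csf2rb lies on the plus strand at chr15:78325752-78353847 and Csf2rb2 on the minus strand at chr15:78282507-78305721, with 20030 bases between them. Their coding sequences of 2688 and 2634 bases were 95.2% identical over 2628 aligned bases, with a longest identical run of 242 bases. Windows of 120 coding bases were compared that held no alignment gap and lay inside a single exon in both genes. The sequences below show one of them where the genes cannot be told apart and the one where they differ most. The first window lies in exon 14 of both genes (chr15:78348577-78348696, plus strand, and chr15:78284752-78284871, minus strand) and has 0 differing bases, so that a read inside it fits both. The other lies in exon 4 (chr15:78338867-78338986, plus strand, and chr15:78294345-78294464, minus strand), and the capitals mark its 16 differing bases.
Csf2rb and Csf2rb2, exon 14: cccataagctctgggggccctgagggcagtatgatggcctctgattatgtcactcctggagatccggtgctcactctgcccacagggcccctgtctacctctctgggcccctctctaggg
Csf2rb, exon 4: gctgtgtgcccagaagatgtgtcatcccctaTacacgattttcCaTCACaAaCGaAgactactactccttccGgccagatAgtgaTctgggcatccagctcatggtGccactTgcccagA
Csf2rb2, exon 4: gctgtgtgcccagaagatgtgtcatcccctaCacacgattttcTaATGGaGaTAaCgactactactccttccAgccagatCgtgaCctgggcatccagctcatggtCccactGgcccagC
How the authors assigned reads that fit both genes is not given in the sources used here, and the split between Csf2rb and Csf2rb2 is uncertain for that reason. The transcripts of Csf3r also have a processed pseudogene, AC105061.2, that is 96.8% identical over 1518 bases. Csf1r, Il3ra and Il6ra each overlap, at one end, a gene on the opposite strand (Hmgxb3, Gm48860 and Gm42809), and the strand setting of the counting is not stated.

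The libraries held 9782166 to 16280811 reads in genes, and 18254 to 20358 genes were above 0. Sca1 transcript (Ly6a) ran from 123 to 207 CPM (reads of a gene relative to library size) in LSK libraries and from 0.142 to 4.68 in LK libraries, and Kit was present in all 8. Ripk3 signal, the value as deposited, was 162 and 168 in the WT-LSK libraries against 3.38 and 1.08 in Ripk3-KO-LSK. In LK cells it was 144 and 149.7 in WT against 16.2 and 10.6 in Ripk3-KO, so the target was low in every Ripk3-KO library. Genotype and sex could not be told apart, because Xist was high in the 4 WT libraries and near 0 in the others, and Eif2s3y and Uty had reads in every Ripk3-KO library and in no WT library. Genotypes were compared on the deposited signal, which the authors scaled within each population. LSK and LK cells were compared on CPM with a single scaling of all 8 libraries, called the common scale below, and a difference is called when its limma adjusted p is under 0.05. In these sorted but mixed populations, fewer cells of a type and less RNA per cell cannot be told apart.

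Csf1r separated the populations more than any other member. It stood at 11.2 and 31.1 CPM on the common scale in WT-LSK (128 and 342 reads) and at 14.7 and 9.16 in Ripk3-KO-LSK (206 and 107 reads). In LK cells it stood at 174.6 and 141 CPM in WT and at 149.6 and 150.3 in Ripk3-KO, with 1643 to 2254 reads. All 4 LK libraries lay far above all 4 LSK libraries. The difference between LSK and LK on log2(CPM + 1) was -3.00 ± 0.35 (SE) in WT, which is 8.01-fold lower in LSK (adjusted p = 2.29e-06), and -3.58 ± 0.35 in Ripk3-KO, which is 11.97-fold lower (adjusted p = 1.31e-07). As a ratio, the WT-LSK libraries differed from each other by more than those of any other group, and the WT difference was -3.72 without WT-LSK replicate 2 and -2.30 without WT-LSK replicate 1, both called.

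Csf3r, the G-CSF receptor, was high everywhere and differed far less. Its common-scale level was 180.2 and 179.8 CPM in WT-LSK, 180.3 and 130.1 in Ripk3-KO-LSK, 252 and 247 in WT-LK and 264 and 265 in Ripk3-KO-LK. The 4 LSK libraries lay below the 4 LK libraries. The log2 difference of LSK from LK was -0.47 ± 0.19 in WT (adjusted p = 0.0752, not called) and -0.78 ± 0.19 in Ripk3-KO (1.72-fold lower, adjusted p = 0.00506). The Ripk3-KO call rested on single libraries, since the adjusted p was 0.169 without Ripk3-KO-LSK replicate 2 and 0.0515 without Ripk3-KO-LK replicate 2. With the deposited scaling within each population it was -0.41 with an adjusted p of 0.134. In WT, Csf3r was called without Ripk3-KO-LSK replicate 1 or 2 (adjusted p = 0.0396 and 0.0386) and with libraries centered on their medians (0.0241).

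The alpha chain of the GM-CSF receptor and the shared beta chain were both lower in LSK than in LK cells. Csf2ra stood at 44.3 and 58.6 CPM in WT-LSK and at 53.8 and 58.7 in Ripk3-KO-LSK, against 136 and 128 in WT-LK and 100.4 and 142 in Ripk3-KO-LK. The LSK and LK libraries did not overlap in either genotype. Its log2 difference was -1.36 ± 0.24 in WT (2.56-fold lower in LSK, adjusted p = 0.000356) and -1.07 ± 0.24 in Ripk3-KO (2.10-fold lower, adjusted p = 0.00282). The Ripk3-KO difference was -0.83 with an adjusted p of 0.105 without Ripk3-KO-LK replicate 2. Csf2rb stood at 33.3 and 44.1 CPM in WT-LSK and at 43.2 and 40.1 in Ripk3-KO-LSK, against 104 and 86.7 in WT-LK and 82.4 and 98.1 in Ripk3-KO-LK. These libraries did not overlap either, and the log2 difference was -1.29 ± 0.26 in WT (2.44-fold lower, adjusted p = 0.00100) and -1.09 ± 0.26 in Ripk3-KO (2.13-fold lower, adjusted p = 0.00393). The Ripk3-KO call of Csf2rb was lost without Ripk3-KO-LSK replicate 2 (adjusted p = 0.0502), without Ripk3-KO-LK replicate 2 (0.0808) and with the deposited scaling (0.0519). With the reads of Csf2rb and Csf2rb2 summed to 1 gene, LSK was again lower in WT (adjusted p = 0.00104) and in Ripk3-KO (0.00232).

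The chains that serve IL-3 without GM-CSF were called in neither genotype. Il3ra stood at 16.0 and 18.4 CPM in WT-LSK and at 8.40 and 10.7 in Ripk3-KO-LSK, against 12.5 and 15.6 in WT-LK and 9.73 and 15.7 in Ripk3-KO-LK. The WT-LSK libraries were the highest of the 8 and the Ripk3-KO-LSK libraries included the lowest. Its log2 difference of LSK from LK was 0.28 in WT (95% interval -0.66 to 1.22, adjusted p = 0.677) and -0.35 in Ripk3-KO (-1.28 to 0.58, adjusted p = 0.657). Csf2rb2, the beta chain for IL-3 alone, had few reads, with 61 and 12 in WT-LSK, 19 and 34 in Ripk3-KO-LSK, 40 and 55 in WT-LK and 100 and 65 in Ripk3-KO-LK. The WT-LSK libraries alone spanned 1.09 to 5.32 CPM. Its log2 difference of LSK from LK was -0.42 in WT, where the libraries overlapped (95% interval -1.78 to 0.95, adjusted p = 0.666). In Ripk3-KO, where the LSK libraries lay below the LK libraries, it was -1.16 (-2.53 to 0.20, adjusted p = 0.240), a size like that of Csf2ra and Csf2rb.

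Of the chains of the IL-6 receptor, Il6ra was called in both genotypes and Il6st in neither, and the chains were not tested against each other. Il6ra, which binds the ligand, stood at 22.3 and 18.5 CPM in WT-LSK and at 14.5 and 21.5 in Ripk3-KO-LSK, against 40.2 and 43.0 in WT-LK and 30.2 and 43.8 in Ripk3-KO-LK. LSK libraries were below LK libraries in both genotypes. The log2 difference was -0.999 ± 0.350 in WT (1.998-fold lower, adjusted p = 0.0414) and -1.004 ± 0.350 in Ripk3-KO (2.01-fold lower, adjusted p = 0.0452). These calls were close to the threshold and passed it in 9 of 20 settings in WT and in 8 of 21 in Ripk3-KO. In WT the call was lost without either WT-LSK, either WT-LK or either Ripk3-KO-LK library, with adjusted p up to 0.158. In Ripk3-KO it was lost without any 1 library other than WT-LSK replicate 1, with adjusted p up to 0.378. Il6st, the signal chain, stood at 14.6 and 23.5 CPM in WT-LSK, 12.96 and 16.8 in Ripk3-KO-LSK, 13.6 and 14.0 in WT-LK and 43.7 and 20.3 in Ripk3-KO-LK. Ripk3-KO-LK replicate 1, with 606 reads, stood above the other 7 libraries. The log2 difference of LSK from LK for Il6st was 0.40 in WT (95% interval -0.49 to 1.29, adjusted p = 0.508). In Ripk3-KO it was -0.97 (-1.86 to -0.08, adjusted p = 0.121), a size like that of Il6ra.

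**Figure D1:**
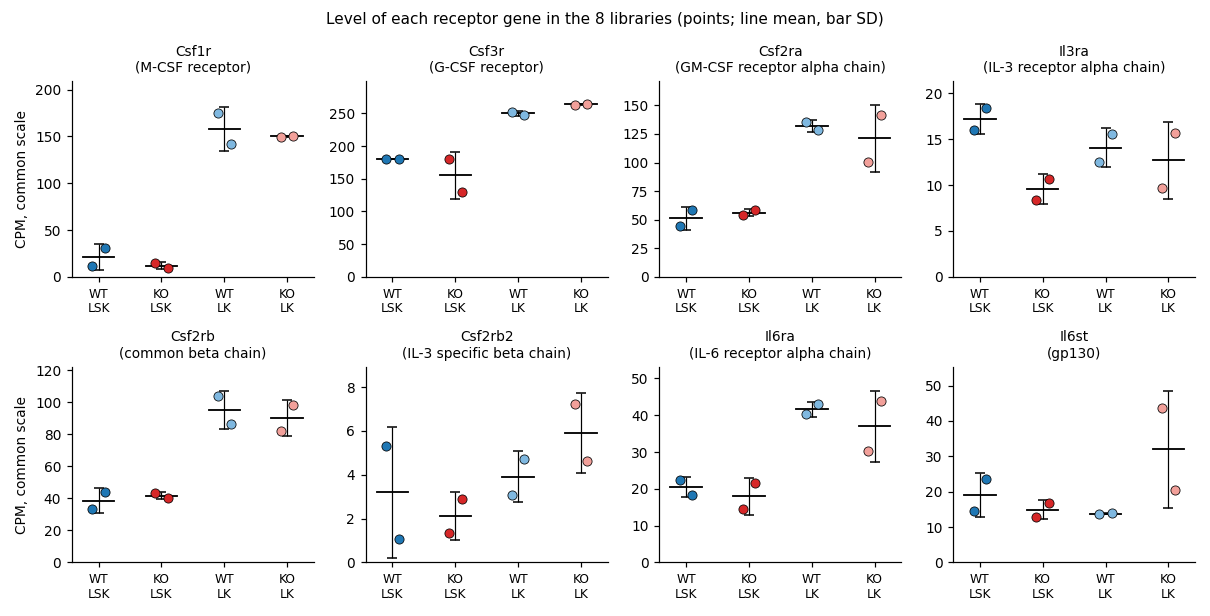
Level of each receptor gene in CPM on the common scale (vertical axis, linear, from 0) in the 8 libraries, with 2 points per group, the mean as a line and the SD as a bar. Csf1r rises from 9.16 to 31.1 CPM in LSK to 141 to 174.6 in LK, whereas Il3ra stays between 8.40 and 18.4 in all groups.

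In all, 4 of the 8 members were called lower in LSK than in LK cells of WT mice and none higher, where 14.8% of the 15950 genes tested were called lower, 9.16% higher and 23.9% in either direction. In Ripk3-KO mice 5 of 8 were called lower and none higher, where 12.2% of 15237 genes were called lower, 7.95% higher and 20.2% in either direction. Csf1r, Csf2ra, Csf2rb and Il6ra were called in both genotypes. The libraries of LSK and LK did not overlap for 7 members in WT, 5 lower and 2 higher, where 64% of all genes tested did not overlap (31.2% lower and 32.8% higher). They did not overlap for 7 members in Ripk3-KO, all 7 lower, where this held for 57.5% of genes (30.1% lower). The median log2 difference of the members was -0.74 in WT and -1.04 in Ripk3-KO, against 0.08 and 0.00 over all genes tested. With the deposited scaling the median of all genes moved to 0.41 and 0.34, and the share of calls that were higher in LSK moved from 38.3% to 70.9% in WT and from 39.5% to 71.3% in Ripk3-KO (28.1% with libraries centered on their medians). The members called, all lower, then became 3 in WT and 2 in Ripk3-KO. No member changed the sign of its difference with that scaling or with libraries centered on their medians.

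**Figure D2:**
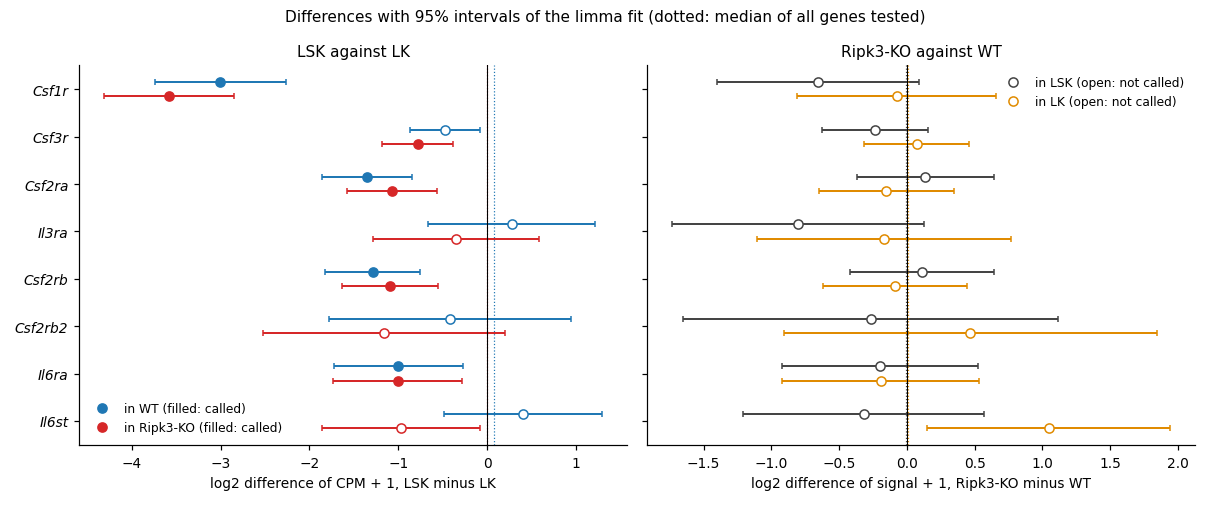
Log2 differences of the 8 receptor genes with 95% intervals from limma, LSK minus LK on the left and Ripk3-KO minus WT on the right, with filled points for called differences and a dotted line at the median of all genes tested. On the left Csf1r stands at -3.00 and -3.58, and on the right every point is open.

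Levels of different genes were compared after division by the length of the annotated exons, as CPM per kilobase on the common scale. Csf3r was the most abundant member in every group (49.9 ± 0.0795 SD in WT-LSK, 43.0 ± 9.84 in Ripk3-KO-LSK, 69.2 ± 1.01 in WT-LK and 73.2 ± 0.221 in Ripk3-KO-LK, n = 2 each). Csf2ra came next in every group, from 17.9 ± 3.52 in WT-LSK to 45.9 ± 1.86 in WT-LK, and its libraries did not overlap those of Csf3r or of the gene after it. In LK cells Csf1r followed at 27.4 ± 4.05 in WT and 25.97 ± 0.0943 in Ripk3-KO, then Csf2rb at 13.1 ± 1.66 and 12.4 ± 1.53, all with libraries apart from their neighbors. Il6ra and Il3ra then stood level at 4.81 ± 0.227 and 4.74 ± 0.725 in WT-LK and at 4.28 ± 1.12 and 4.28 ± 1.41 in Ripk3-KO-LK, where Il6st (2.88 ± 1.49) was not apart from Il3ra either. In WT-LSK the order after Csf2ra was Il3ra (5.80 ± 0.555), Csf2rb (5.32 ± 1.05), Csf1r (3.66 ± 2.44) and Il6ra (2.36 ± 0.315), and no gene of this stretch was apart from the next one in it. In Ripk3-KO-LSK, Csf2rb (5.73 ± 0.301) and Il3ra (3.22 ± 0.546) were apart, and Il6ra (2.08 ± 0.574) and Csf1r (2.06 ± 0.675) were not. Il6st was next to last and Csf2rb2 last in every group, with Csf2rb2 between 0.450 ± 0.232 and 1.25 ± 0.385. With the length of the longest transcript in place of all exons, Il3ra and Csf2rb changed places in WT-LSK, Il6ra and Csf1r in Ripk3-KO-LSK, and Il6ra and Il3ra in both LK groups.

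**Figure D3:**
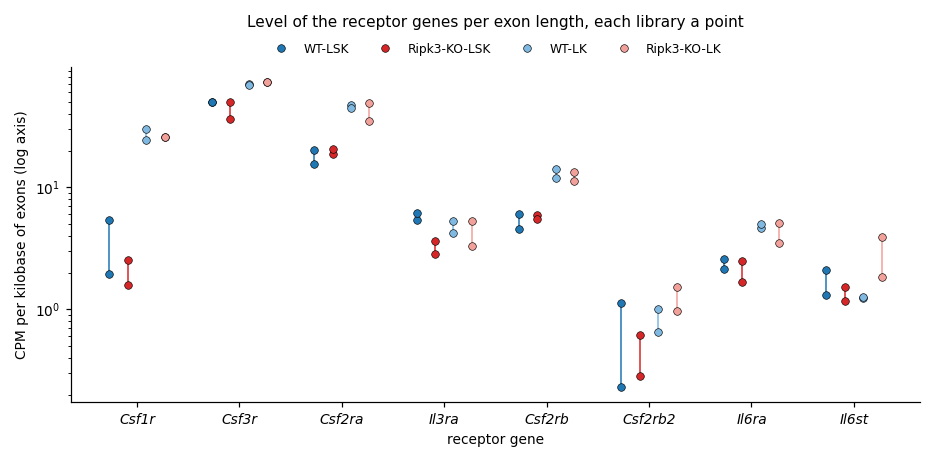
CPM per kilobase of annotated exons (logarithmic axis) for the 8 receptor genes, with a point for each library and a color for each of the 4 groups. Csf3r is highest in every group, at 43.0 to 73.2 on average, and Csf2rb2 is lowest, at 0.450 to 1.25.

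Ratios of 2 genes within a library do not depend on library scaling, and they are given here as a description. The ratio of Csf2ra to Csf2rb per exon length, the chains that together make the GM-CSF receptor, lay between 3.09 and 3.75 in all 8 libraries. It was 3.37 and 3.37 in WT-LSK, 3.16 and 3.71 in Ripk3-KO-LSK, 3.31 and 3.75 in WT-LK and 3.09 and 3.66 in Ripk3-KO-LK, although both genes were over 2-fold lower in LSK cells. The ratio of Il3ra to Csf2rb was 1.18 and 1.02 in WT-LSK, 0.477 and 0.654 in Ripk3-KO-LSK, 0.296 and 0.441 in WT-LK and 0.290 and 0.391 in Ripk3-KO-LK. It reached 1 in no library other than those of WT-LSK. The ratio of Csf3r to Csf1r ran from 9.25 to 25.8 in LSK libraries and from 2.31 to 2.82 in LK libraries, with no overlap. The ratio of Il6ra to Il6st was 3.79 and 3.96 in WT-LK, 0.888 and 2.77 in Ripk3-KO-LK and 1.01 to 1.96 in LSK libraries. The ratio of Csf2rb to Csf2rb2 scattered from 4.08 to 26.3, and both of its extremes were WT-LSK libraries.

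**Figure D4:**
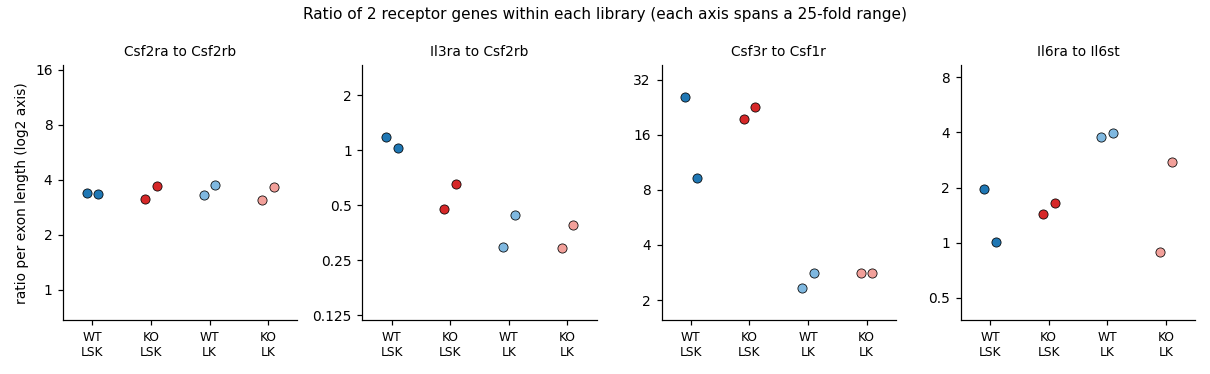
Ratio of a pair of receptor genes per exon length (log2 axis with the same 25-fold span in each panel) in each of the 8 libraries, by group. Csf2ra to Csf2rb stays between 3.09 and 3.75, while Csf3r to Csf1r falls from 9.25 to 25.8 in LSK to 2.31 to 2.82 in LK.

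Loss of Ripk3 went with no called change in any of the 8 receptor genes. In LSK cells limma called 0 of 8 members, where 2.16% of 16817 genes were called, and 0 of 8 had an unadjusted p under 0.05, where 17.9% of genes did. In LK cells it called 0 of 8, where 0.473% of 13949 genes were called, and 1 of 8 (Il6st) had an unadjusted p under 0.05, where 6.56% of genes did. A test of whether the genotype effect differed by population called 0 of 8, where 0.358% of 15901 genes were called, and 1 of 8 (Il6st again) had an unadjusted p under 0.05, where 10.1% did. edgeR on the recovered reads also called 0 of 8 in each of these comparisons (1.24%, 0.373% and 0.264% of all genes), and so did DESeq2 (3.66%, 1.22% and 0.968%) and the fits without any 1 library. Centering libraries on their medians moved the share of higher calls in LSK from 41.3% to 23.5% and called no member. The median log2 difference of the members was -0.25 in LSK and -0.08 in LK, against -0.01 and 0.01 over all genes tested.

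In LSK cells the member with the greatest genotype difference was Il3ra. Its deposited signal was 18.3 and 20.9 in WT against 9.49 and 12.2 in Ripk3-KO, so the groups did not overlap, as was the case for 2 of 8 members, both lower, and for 44.6% of all genes tested (23.2% lower). The log2 difference was -0.80 ± 0.45 (95% interval -1.73 to 0.12, adjusted p = 0.349, limma), and over all settings the adjusted p ran from 0.268 to 0.570. Il3ra lies on chromosome 14, as Ripk3 does, 41.4 Mb away. Csf1r signal was 12.7 and 35.4 in WT against 16.6 and 10.5 in Ripk3-KO, with the genotypes overlapping and a log2 difference of -0.66 ± 0.36 (adjusted p = 0.342), which was 0.05 without WT-LSK replicate 2. Csf3r signal was 205.3 and 204.8 in WT against 203 and 149 in Ripk3-KO, and its log2 difference of -0.24 (95% interval -0.63 to 0.15) rested on Ripk3-KO-LSK replicate 2, without which it was -0.01. The other members differed by -0.32 (Il6st) to 0.14 (Csf2ra) on the log2 scale, with adjusted p between 0.736 and 0.872.

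In LK cells Il6st was the member that stood out. Its signal was 12.0 and 12.4 in WT against 38.4 and 17.8 in Ripk3-KO, with no overlap, as for 2 of 8 members, both higher, and for 40% of all genes tested (20.1% higher). The log2 difference was 1.05 ± 0.43 (unadjusted p = 0.0240, adjusted p = 0.592, limma), and without Ripk3-KO-LK replicate 1 it was 0.51. The genotype effect on Il6st was lower in LSK than in LK by -1.37 ± 0.61 on the log2 scale (unadjusted p = 0.0345, adjusted p = 0.455). The other 7 members lay between -0.19 (Il6ra) and 0.47 (Csf2rb2), each with an adjusted p above 0.9. Csf3r was the most tightly measured of them, with a signal of 221 and 219 in WT against 232 and 231 in Ripk3-KO and a 95% interval of -0.32 to 0.46. An exact permutation test of 2 against 2 libraries cannot give a p under 0.333, so single members were tested by the model alone.

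Transcripts of other cell types moved with genotype and with population beside these results, and their part in them was not tested. Of 5 markers of maturing neutrophils 4 were listed (Ltf, Camp, Ngp and Lcn2), and their summed level was 226 to 260 CPM in WT libraries and 942 to 1123 in Ripk3-KO libraries, in LSK and LK cells alike. All 4 were called higher in Ripk3-KO in both populations. Csf3r, which neutrophils also express, was called in neither, and whether such cells add to its level was not tested. Of the other marker lists, Gata1 (erythroid) was called lower in Ripk3-KO in LSK cells and Junb (immediate-early) in LK cells. Between genotypes 2.16% of all genes tested were called in LSK cells and 0.473% in LK cells. The summed granulocyte-monocyte progenitor markers (Mpo, Elane, Prtn3, Ctsg and Ms4a3) were 5003 to 7751 CPM in LSK and 57988 to 84408 in LK. In each genotype 5 of 5 were called lower in LSK. Over all genes tested, 14.8% were called lower and 9.16% higher in WT, and 12.2% and 7.95% in Ripk3-KO. Monocyte and dendritic cell markers summed to 348 to 402 CPM in LSK and 2794 to 3111 in LK, again 5 of 5 called lower, and erythroid markers to 98.8 to 184 and 1198 to 1833, 5 of 5 lower. Erythroid sums were 184 and 141 in WT-LSK against 117 and 98.8 in Ripk3-KO-LSK, and 1833 and 1592 in WT-LK against 1198 and 1265 in Ripk3-KO-LK. Stem cell markers summed to 217 to 385 CPM in LSK and 21.1 to 30.8 in LK. In each genotype 4 of 5 were called higher in LSK, and Procr was at 0 in WT-LK replicate 1. Stem cell sums were 264 and 217 in WT-LSK against 369 and 385 in Ripk3-KO-LSK. Gene by gene, 3 of 5 stem cell markers had a log2 difference above 0 in this comparison, as did 49.4% of all genes tested. Their median log2 difference was 0.11, and 0 were called. Sums were not tested, and some other lists did not overlap between genotypes either. Of the mast cell and basophil markers 3 of 5 were called lower in LSK in WT and 4 of 5 in Ripk3-KO, with Ms4a2 at 0 in 3 LSK libraries and Gzmb at 0 in 1. Megakaryocyte markers, with 1 called higher and 1 or 2 lower, T cell markers (2 higher in each genotype), B cell markers (1 and 0 higher) and stroma and endothelium markers (3 and 1 higher) made up the rest. Immediate-early genes, which respond to handling, had 4 of 6 called higher in LSK in WT and 5 of 6 in Ripk3-KO.

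The ligands of these receptors were sparse. Csf3 and Il3 were at 0 in 6 of the 8 libraries and reached 5 reads and 1 read at most. A count of 0 does not exclude an expected count of up to 3 reads in that library. Csf2 and Il5 were at 0 in 3 libraries and Il34 in 4, and none of them exceeded 33 reads. Csf1 was present in all libraries at 7.74 to 19.2 CPM and Il6 at 1.86 to 8.37. Osm, the gene for oncostatin M, which signals through Il6st, was the most abundant, at 49.9 to 54.4 CPM in LSK and 71.5 to 147 in LK. Its log2 difference of LSK from LK was -1.40 in WT (adjusted p = 0.000268), whereas Clcf1, another ligand of gp130 receptors, was higher by 2.12 in WT and 1.94 in Ripk3-KO. Lif was called higher in LSK in WT by 2.28, with 11.5 CPM in WT-LSK replicate 1 and 2.09 in replicate 2. Without WT-LSK replicate 1 its mean fell under the filter of 1 and it was not tested. The call was lost without WT-LK replicate 1 or 2 (differences of 2.33 and 2.26). It was also lost with no filter (limma adjusted p = 0.0812), without the trend (0.0708) and with the pseudocount 0.1 (0.0563). The Ripk3-KO call of Clcf1 was lost without Ripk3-KO-LSK replicate 2 (0.0872) or Ripk3-KO-LK replicate 1 (0.104). In all, 2 of 6 ligands tested were called higher in LSK and 1 lower in WT, and 1 of 5 was called higher in Ripk3-KO. Over all genes tested, 9.16% were called higher and 14.8% lower in WT, and 7.95% higher in Ripk3-KO. No ligand was called between genotypes (0 of 7 tested in LSK and 0 of 4 in LK), where 2.16% and 0.473% of all genes were.

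Of 20 other receptors for blood cell cytokines and growth factors, 19 were tested in WT, with 5 called higher in LSK and 3 lower. In Ripk3-KO 18 were tested, with 5 called higher and 2 lower. Over all genes tested, 9.16% were called higher and 14.8% lower in WT, and 7.95% and 12.2% in Ripk3-KO. Flt3, the receptor of multipotent and lymphoid progenitors, was higher in LSK by 2.81 and 3.09 on the log2 scale in WT and Ripk3-KO. Epor, the erythropoietin receptor, was lower (-2.22 and -2.50). Il7r was called higher by 2.51 and 2.12 at a low level, with 64 to 124 reads in LSK libraries and 0 in 2 LK libraries. Its calls were absent by edgeR (adjusted p = 0.114 and 0.260) and DESeq2 (0.301 and 0.528), and without Ripk3-KO-LK replicate 2 the Ripk3-KO difference was 1.245 (adjusted p = 0.417). Flt3 was also the only receptor of this list called between genotypes. Its common-scale level in LSK cells was 488 and 415 CPM in WT against 775 and 775 in Ripk3-KO (log2 difference of signal 0.78 ± 0.19, adjusted p = 0.0298), and the call was lost without any 1 of the 4 LSK libraries (adjusted p up to 0.165).

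Some genes that act after the receptors were also called between the populations. Over all genes tested, 23.9% were called in WT (14.8% lower and 9.16% higher in LSK). In Ripk3-KO 20.2% were called (12.2% lower and 7.95% higher). A count near these shares is no trait of its list. Of the SOCS, PIAS and SH2B genes, which damp cytokine signals, 4 of 14 were called higher in LSK and 2 lower in WT, and 4 higher and 1 lower in Ripk3-KO. Socs5, Socs2 and Socs3 were higher in WT-LSK by 2.64, 2.49 and 1.92 on the log2 scale, and Sh2b2 was lower (-1.70). In Ripk3-KO, Cish, Socs3 and Socs1 were higher by 2.91, 2.58 and 1.59 and Sh2b2 was lower (-2.09). The STAT target list, which shares Socs2, Socs3 and Cish with the inhibitors, had 6 of 17 called higher in each genotype and 1 lower (Osm) in WT, with Id1 higher by 2.05 and 2.08, Pim2 by 1.61 in WT and Mcl1 by 1.89 in Ripk3-KO. Of the JAK kinases and STAT factors 1 of 11 was higher (Stat4) in both genotypes. Jak2, Tyk2 and Stat6 were lower in WT (-1.29, -0.94 and -0.69), and Tyk2 and Stat6 in Ripk3-KO (-1.06 and -0.76). Of 19 adaptors, kinases and phosphatases tested none was higher, 6 were lower in WT and 5 in Ripk3-KO, among them the myeloid kinase Fes (-1.86 and -1.10) and the adaptor Shc1 (-1.42 and -1.83). Pik3cd was lower in WT (-0.99) and Vav1 in Ripk3-KO (-0.90). Of the genes for receptor processing and trafficking, 3 of 9 were lower in WT (Sorl1 at -1.67, Adam17 at -1.09 and Sort1 at -1.08) and 1 of 10 in Ripk3-KO (Adam10 at -0.79). Adam17 and Adam10 are proteases that shed Il6ra from the cell surface. The genes named from these lists had adjusted p of at most 0.0425 in WT and 0.0379 in Ripk3-KO, and none changed sign in any setting. Calls of many of them rested on single libraries. Leaving out 1 library lost the WT calls of Jak2, Stat4, Tyk2, Stat6, Sh2b2, Sorl1, Adam17 and Sort1 (adjusted p up to 0.351) and the Ripk3-KO calls of Tyk2, Stat4, Stat6, Vav1, Sh2b2, Socs1 and Adam10 (up to 0.484). The JAK and STAT genes called then ran from 1 (without either WT-LK library) to 4 in WT and from 0 (without either Ripk3-KO-LK library) to 3 in Ripk3-KO, and without the variance trend 0 were called in either. The inhibitors called ran from 3 (without WT-LSK or WT-LK replicate 1) to 6 in WT and from 2 (without Ripk3-KO-LSK replicate 1 or Ripk3-KO-LK replicate 2) to 5 in Ripk3-KO. The adaptors, kinases and phosphatases ran from 3 to 6 and from 3 to 5, lowest without WT-LK replicate 1 and Ripk3-KO-LSK replicate 2. The processing and trafficking genes ran from 0 (without WT-LK replicate 1) to 5 (without WT-LSK replicate 1) in WT and from 0 (without either Ripk3-KO-LK library) to 1 in Ripk3-KO, and the STAT targets from 5 to 7 and from 6 to 7. Under the deposited scaling or median centering, calls were lost for Adam17, Jak2, Pik3cd, Sh2b2, Sort1, Stat6 and Tyk2 in WT and for Adam10, Socs1, Stat6, Tyk2 and Vav1 in Ripk3-KO. With the deposited scaling, 2 adaptors, kinases and phosphatases were called in WT in place of 6. Clcf1, Osm, Flt3, Epor, Fes, Shc1, Socs5, Socs2, Socs3, Id1 and Pim2 were called in every setting in WT, left-out libraries included, and so were Flt3, Epor, Shc1, Cish, Socs3 and Id1 in Ripk3-KO.

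Between genotypes, few genes of these lists were called. In LK cells Socs3, which inhibits signaling from gp130 and from Csf3r, stood at 41.6 and 30.6 CPM in WT against 12.8 and 15.6 in Ripk3-KO (log2 difference of signal -1.28 ± 0.27, adjusted p = 0.0268). The difference was not called without WT-LK replicate 1 (adjusted p = 0.620), Ripk3-KO-LK replicate 1 (0.451) or replicate 2 (0.0789), or without WT-LSK replicate 1 (0.0516) or replicate 2 (0.0540). The LK call of Socs3 was also lost with no filter (limma adjusted p = 0.181), without the trend (0.517) and from the 4 LK libraries alone (0.0701). In LSK cells the same gene stood at 134 and 141 CPM in WT and at 90.2 and 88.5 in Ripk3-KO and was not called. Junb, a STAT target and immediate-early gene, stood at 963 and 777 CPM in WT-LK against 394 and 565 in Ripk3-KO-LK (-0.88 ± 0.17, adjusted p = 0.0146), and this was lost without WT-LK replicate 1 (0.443) or Ripk3-KO-LK replicate 1 (0.625). The Junb call was also absent by edgeR (adjusted p = 0.0583), and by limma with no filter (0.498) and without the trend (0.677). In LSK cells Btrc, a subunit of a ubiquitin ligase, was called higher in Ripk3-KO at a low level. It stood at 0.261 and 0.273 CPM in WT against 5.70 and 4.53 (adjusted p = 0.0448), and the call was lost without any 1 of 8 libraries. JAK kinases and STAT factors had 0 of 11 called in either population (limma), and 0 of 19 adaptors, kinases and phosphatases were called. Over all genes tested, 2.16% were called between genotypes in LSK and 0.473% in LK.

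Over the 8 libraries the members that changed with population followed one another. The Pearson correlation of log2(CPM + 1) on the common scale was 0.99 for Csf2ra with Csf2rb, 0.97 for Csf1r with Csf2rb and 0.94 for Csf1r with Csf3r, whereas Il3ra gave 0.04 with Csf2rb and Il6st 0.07 with Il6ra. These are descriptions over libraries that fall into 2 populations, which by itself gives high values to any genes that differ between them. Of 9104 genes with a mean of at least 10 CPM, the most alike to Csf1r were Mybl2, Fgd3 and Hspa14 (0.99 each), to Csf3r Gga2 and Actn4 (0.997 and 0.991), to Csf2ra Agps, Nkg7 and Nup93 (0.99 each) and to Csf2rb Nkg7, Acsl5 and Cstf2 (0.99 each). Those most alike to Il6ra were Aatf, Eif3m and Fh1 (0.99, 0.98 and 0.98), to Il3ra Tuba1a, Rpl13 and Eno3 (0.96, 0.94 and 0.91), to Csf2rb2 Zbed4, Tgfbi and Ap4e1 (0.96, 0.95 and 0.94) and to Il6st Edem3, 2810407C02Rik and AI314180 (0.91, 0.87 and 0.85).

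Promoters were read for the 6 members with a RefSeq entry on GRCm38.p6, which leaves out Csf1r and Csf2rb. The letters GAGGAAG are a purine-rich box of the kind read by the myeloid factor PU.1. They were present on either strand within 250 bases before the RefSeq start in 3 of 6 members (Csf2ra, Csf2rb2 and Csf3r). This held for 10.6% of all 32851 RefSeq promoter windows of that length. GENCODE M21 starts Csf3r at chr4:126024550 and Csf2ra at chr19:61228429, inside these windows. By those starts the box of Csf3r and most of the box pair of Csf2ra lie within the gene and not before it. The palindromic letters TTGCGCAA, as read by C/EBP factors, and TTCCNGGAA, as read by STAT factors, were in 0 of 6 and in 0.164% and 0.913% of all windows. The RefSeq promoter window of Csf2ra (chr19:61228419-61228668, minus strand) is shown because it holds the box as a pair overlapping by 1 base. The pair, in capitals, starts 14 and 8 bases before the RefSeq start.
Csf2ra promoter: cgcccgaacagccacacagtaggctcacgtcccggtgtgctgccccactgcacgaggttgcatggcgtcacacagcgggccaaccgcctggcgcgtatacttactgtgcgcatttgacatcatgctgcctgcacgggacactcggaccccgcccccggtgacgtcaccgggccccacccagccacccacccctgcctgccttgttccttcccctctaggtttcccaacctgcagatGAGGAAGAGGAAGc
A match of letters is a description of the sequence and was not set against any binding measurement. Of the 3 members with the box, Csf2ra was called lower in LSK in both genotypes, Csf3r in Ripk3-KO and Csf2rb2 in neither, and Il6ra, called in both, had none in its window.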

How the data were processed

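RNA-seq libraries of sorted WT and Ripk3-KO LSK and LK cells (TruSeq stranded mRNA kit, per the labels) were taken as deposited, and no reads were aligned. The submitters' processing notes name TopHat and mm9, and the counting tool and annotation are not given in the sources used here. The values carry the heading FPKM, but in each library 100% of those above 0 were whole multiples (within 0.01) of a single step, with no division by gene length. The signal deposited by the authors is therefore reads per gene scaled as CPM with TMM factors set within each population. Reads were recovered from the steps. Genotypes were compared with limma 3.58.1 in R 4.3.3 (lmFit, eBayes with a trend) on log2(signal + 1), and LSK with LK on log2(CPM + 1) with 1 TMM scaling of all 8 libraries (edgeR 4.0.16), so that fold changes of low genes are understated.

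A single fit of 4 group means over 8 libraries served all contrasts, genes with a mean of at least 1 over the libraries of a contrast were tested two-sided, and p-values were adjusted by Benjamini-Hochberg over all of them. The design had named the unit only as a value and was kept. edgeR's quasi-likelihood test and DESeq2 1.42.0 were run on the recovered reads. Further settings were median centering, a fit without the trend, the pseudocount set to 0.1, the filter removed or raised to a mean of 5, a fit of the 4 libraries compared, a replicate block and leaving out each library. Gene positions and exon lengths came from GENCODE M21 on GRCm38 and promoters from RefSeq, since the files hold gene symbols and no coordinates.

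Replicates correlated at 0.961 to 0.981 across genes and differed by more than counting error. The scripts were tested on simulated data. Members and lists were chosen with earlier results of these data known. Named beside the members are the target, sort and sex checks, each pathway gene called between genotypes, up to 4 called genes per list between populations, and the 3 genes most correlated with each member. A few genes that this rule names are not reported here.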

Additional observations from a re-analysis of the deposited data

Results flagged for a closer look

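The effect of the knockout on Ripk3 itself differed between the populations by the test of that difference. Ripk3 signal fell from 165 ± 3.93 (SD, n = 2) to 2.23 ± 1.63 in LSK cells, which is -5.78 on the log2(signal + 1) scale, and from 147 ± 3.90 to 13.4 ± 3.93 in LK cells, which is -3.39. The difference of these effects was -2.40 ± 0.51 (adjusted p = 0.0343, limma), and Ripk3-KO-LK libraries kept 255 and 171 Ripk3 reads against 42 and 11 in Ripk3-KO-LSK. Over the fits without 1 library the adjusted p reached 0.342, and it passed the threshold in 1 of these 8 fits. With all 8 libraries the Ripk3 difference was also not called with the pseudocount 0.1 (limma adjusted p = 0.0543), with no filter (0.328) or without the trend (0.257). No receptor gene had a called difference of this kind.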

How the results depend on the processing

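There were 2 libraries a group, and Csf2rb2 had few reads (12 to 100). Between genotypes 0 members were called in every setting. Between LSK and LK, Csf1r was called in every setting in both genotypes, and the WT calls of Csf2ra and Csf2rb were too. The members called in Ripk3-KO became 1 without the variance trend, 2 with the deposited scaling and 1 to 5 without 1 library (1 without Ripk3-KO-LK replicate 2 and 2 without Ripk3-KO-LSK replicate 2), and in WT 3 to 5. Without the trend Csf3r, Csf2ra, Csf2rb and Il6ra lost their Ripk3-KO calls, and Il6ra its WT call. Apart from left-out libraries no member changed sign, and the cause of lost calls was not tested.

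Signs turned in 20 of the 320 fits of a member without 1 library, none of them called. The lowest and highest log2 differences of these members between genotypes in LSK were -1.36 and 0.049 for Csf1r, -0.062 and 0.33 for Csf2ra, -0.085 and 0.31 for Csf2rb, -1.09 and 0.56 for Csf2rb2, -0.48 and 0.083 for Il6ra and -0.64 and 0.0058 for Il6st. In LK they were -0.22 and 0.067 for Csf1r, -0.39 and 0.089 for Csf2ra, -0.48 and 0.14 for Il3ra, -0.21 and 0.035 for Csf2rb and -0.45 and 0.060 for Il6ra. For the genotype effect in LSK less that in LK they were -1.285 and 0.13 for Csf1r, -1.56 and 0.092 for Csf2rb2 and -0.28 and 0.28 for Il6ra, and for LSK against LK in WT -1.20 and 0.36 for Csf2rb2.

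The number of genes called between genotypes in LSK (363) was 198 with no filter, 209 by edgeR, 616 by DESeq2, 120 without the trend, 195 from the 4 LSK libraries alone and 99 to 262 without 1 library. In LK (66) it was 9 with no filter, 170 by DESeq2, 3 without the trend, 125 from the 4 LK libraries alone and 13 to 101 without 1 library. For the difference of these effects (57) it was 3 with no filter, 154 by DESeq2, 2 without the trend and 17 to 90 without 1 library. Between LSK and LK it was 1998 without the trend and 1501 to 4214 without 1 library in WT (3814), and 1494 and 1487 to 3163 in Ripk3-KO (3072).

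The labels number replicates within groups but do not pair samples across them, and deviations of same-numbered libraries correlated at -0.17 to 0.02 across genes. With the replicate number as a block, 0 members were called between genotypes, 3 between LSK and LK in WT and 4 in Ripk3-KO (Il6ra lost in both, adjusted p = 0.0578 and 0.0604). Pairing the numbers crosswise between the Ripk3-KO groups, chosen after seeing the data, gave 5.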
